A study of Pyrus communis with 12 samples.

Results

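The genes described here are PCP024822 and PCP020355, which carry a molybdopterin-binding oxidoreductase domain, PCP023499, which carries a nitrite/sulphite reductase 4Fe-4S domain, and PCP002967, which carries a leghaemoglobin iron-binding domain. They are 4 of the 42760 genes of the table, selected on their FPKM, which was lower in the skins of a red sport than in those of its parent. Their differences between the cultivars are therefore given as a description, with no test. The deposited domain names are those of a nitrate reductase pair, a nitrite reductase and a haemoglobin, although the molybdopterin domain also occurs in sulphite oxidase. The pathway annotation that accompanies the study puts PCP024822, PCP020355 and PCP023499 in nitrogen metabolism, under the nitrate reductase and ferredoxin-nitrite reductase entries, without saying which gene belongs to which, and the names used here follow the domains. PCP002967 is called a haemoglobin gene below, since pear is no legume and the domain name does not give its class.

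Young fruit skins of a European pear (Pyrus communis), ‘Clapp Favorite’ or ‘CF’, and of a red sport that arose from it, ‘Red Clapp Favorite’ or ‘RCF’, were profiled by RNA-seq at 2 and 5 days after full bloom (DAFB). ‘CF1’ and ‘RCF1’ are the skins at 2 DAFB, when fruits of both cultivars were similarly green, and ‘CF2’ and ‘RCF2’ those at 5 DAFB, when their colour differed. Each of the 4 groups had 3 libraries, described as biological replicates. All fruits came from 6-year-old trees on Pyrus betulaefolia rootstock in 1 orchard, and each stage was 1 harvest day, so stage and harvest day cannot be told apart. A single red sport was set against a single parent, and the skins of many fruits were pooled, so fewer cells of a type and less RNA per cell cannot be told apart either. Values are FPKM, fragment counts divided by transcript length and by the size of the library, which allow levels of different genes to be set side by side.

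Plants take up most of their nitrogen as nitrate. Nitrate reductase, a cytosolic enzyme with molybdenum cofactor, haem and FAD, reduces it to nitrite with NAD(P)H, and the plastid enzyme nitrite reductase, with a 4Fe-4S cluster and sirohaem, reduces nitrite to ammonium with electrons from ferredoxin. Nitrite is toxic when it builds up, and in Arabidopsis and other plants the genes of both enzymes are induced together by nitrate. Nitrate reductase can also pass electrons to nitrite and form nitric oxide. The haemoglobins of plants that are not legumes, also called phytoglobins, oxidise nitric oxide back to nitrate, and some are known to be induced by nitrate or by low oxygen.

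One library needs to be named before the values. Replicate 3 of ‘CF1’ stood apart. Its correlation of log2(FPKM + 1) over all genes of the table was only 0.923 to 0.955 with its own group. Within each of the other 3 groups it was 0.992 to 0.995. An index of the change from ‘RCF1’ (0) to ‘RCF2’ (1) was taken as the median over 2623 genes. On it, replicate 3 of ‘CF1’ lay at -0.59, the other ‘CF1’ libraries at 0.00 and 0.10 and those of ‘CF2’ between 0.96 and 1.02. The low values gave relative depths no lower than 0.64 of the deepest library, and ‘CF1’ values are given with and without replicate 3 where it matters. Family-level markers only could be checked: the summed FPKM of 54 chlorophyll a/b binding genes was 3831 to 4829 in ‘CF1’ against 2755 to 3472 in ‘RCF1’, and 4927 to 5450 in ‘CF2’ against 3496 to 3991 in ‘RCF2’, lower in ‘RCF’ with no overlap at either stage. Gene by gene, 22 of the 44 tested had a change below 0 at 2 DAFB (median 0.00, 3 called lower) and 39 of 44 at 5 DAFB (median -0.30, none called), so the lower sum was shared by most of the list at 5 DAFB only. Its part in the difference of the 4 genes was not tested. The 6 genes of skin surface lipid families gave 188.8 to 239.9 in ‘CF1’ and 194.5 to 203.7 in ‘RCF1’. At 5 DAFB they gave 187.2 to 234.5 in ‘CF2’ and 150.3 to 198.6 in ‘RCF2’, overlapping, with 4 of 5 tested genes below 0 (median -0.37, none called). The 46 genes of pollen or anther families gave 3021 to 3384 in ‘CF1’, 2992 to 3577 in ‘RCF1’, 3571 to 3645 in ‘CF2’ and 3357 to 3570 in ‘RCF2’. The part of these lists was not tested either.

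PCP024822 lies on scaffold00596 at 158016 to 163289 on the plus strand. Its level was 23.3, 50.7 and 16.5 FPKM in ‘CF1’ and 18.5, 10.2 and 14.2 in ‘RCF1’. The cultivars thus overlapped at 2 DAFB, but only through replicate 3 of ‘CF1’. At 5 DAFB it was 54.3, 58.2 and 48.7 FPKM in ‘CF2’ against 6.26, 10.3 and 7.07 in ‘RCF2’, with a wide gap between them. The parent's mean was 2.11 times that of the sport at 2 DAFB and 6.82 times at 5 DAFB. The former was 1.4 times without replicate 2 of ‘CF1’ and 2.59 times without replicate 3. Among the 4 genes it was the one whose level in the parent was higher at 5 DAFB, with means of 30.2 ± 18.1 (SD, n = 3) in ‘CF1’ and 53.8 ± 4.8 in ‘CF2’, while that of the sport was lower, with 14.3 ± 4.16 in ‘RCF1’ and 7.89 ± 2.16 in ‘RCF2’. The groups in the order of their means were ‘CF2’, ‘CF1’, ‘RCF1’ and ‘RCF2’, and each overlapped its neighbour in that order.

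PCP020355, the other molybdopterin gene, is the only gene listed on scaffold01573, at 64112 to 68437 on the minus strand. It was the more abundant of the pair in all 12 libraries, with 171.6, 119.1 and 268.3 FPKM in ‘CF1’ and 80.8, 59.2 and 91.7 in ‘RCF1’. Levels at 5 DAFB were 80.8, 88.4 and 72.9 FPKM in ‘CF2’ and 19.8, 23.5 and 21.2 in ‘RCF2’. The sport lay wholly below the parent at both stages. Between the means the difference was 2.41 times at 2 DAFB, or 1.88 times without replicate 3 of ‘CF1’, and 3.76 times at 5 DAFB. The order was ‘CF1’, ‘CF2’, ‘RCF1’ and ‘RCF2’, and only ‘CF2’ and ‘RCF1’ overlapped.

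PCP023499, the nitrite reductase gene, lies on scaffold01215 at 15514 to 18217 on the minus strand. Its level in the parent was the most even of the 4, with 85.3, 82.4 and 88.1 FPKM in ‘CF1’ and 58.4, 64.6 and 68.6 in ‘CF2’. In the sport it was 33.5, 24.1 and 34.4 FPKM in ‘RCF1’ and 7.02, 16.5 and 10.1 in ‘RCF2’. No 2 groups overlapped, and the parent exceeded the sport 2.78 times at 2 DAFB and 5.71 times at 5 DAFB. Replicate 3 of ‘CF1’ did not stand apart for this gene.

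PCP002967, the haemoglobin gene, is the only gene listed on scaffold03122, at 9546 to 10697 on the minus strand. It had the highest level of the 4 at 2 DAFB and the lowest at 5 DAFB in both cultivars. The 3 libraries of ‘CF1’ held 872.6, 410.7 and 1370 FPKM, which placed it between rank 21 and rank 119 of all genes of the table. In ‘RCF1’ it was at 274.8, 200.6 and 286.7 FPKM, at ranks 241 to 427. By 5 DAFB it was at 33.7, 22.8 and 29.1 FPKM in ‘CF2’ and at 3.64, 5.10 and 4.92 in ‘RCF2’. The 4 groups formed 4 separate steps in the order ‘CF1’, ‘RCF1’, ‘CF2’ and ‘RCF2’, and the parent exceeded the sport 3.48 times at 2 DAFB, or 2.53 times without replicate 3 of ‘CF1’, and 6.26 times at 5 DAFB.

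**Figure D1:**
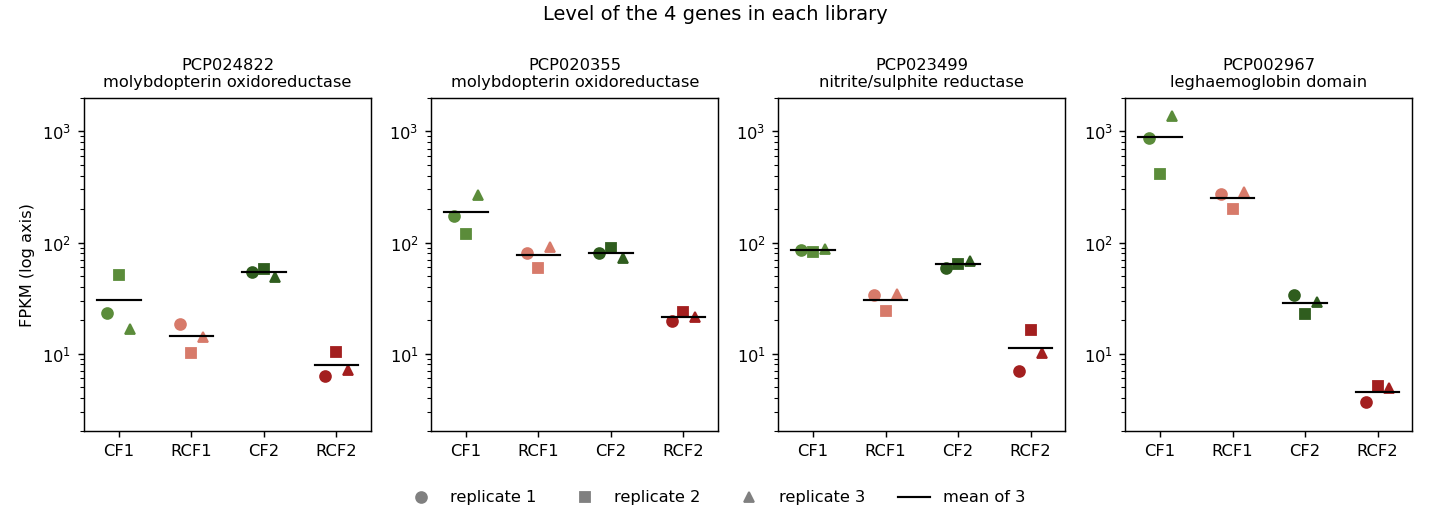
FPKM on a log axis (y) of the 4 genes in each of the 12 libraries, by group (x); symbols give the replicate number and the line the mean of 3. ‘RCF2’ is the lowest group in every panel, and PCP002967 runs from 1370 FPKM in ‘CF1’ to 3.64 in ‘RCF2’.

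Across the 4 genes, the libraries of ‘RCF’ lay wholly below those of ‘CF’ for 3 of 4 at 2 DAFB, where 8.79% of the 25707 tested genes did so, and for 4 of 4 at 5 DAFB, where 15.9% did. These values chose the genes, so nothing is read from the counts. On the log2(FPKM + 1) scale, which understates changes of low genes, the difference ‘RCF1’ vs. ‘CF1’ was -0.91 ± 0.43 (SE) for PCP024822, -1.20 ± 0.33 for PCP020355, -1.46 ± 0.16 for PCP023499 and -1.65 ± 0.46 for PCP002967. For ‘RCF2’ vs. ‘CF2’ it was -2.65 ± 0.16, -1.86 ± 0.09, -2.48 ± 0.25 and -2.40 ± 0.16 in the same order. From the lowest fold change, the 4 genes held places 1, 8, 2 and 3 among the 25707 genes at 5 DAFB. These places too come from the values that chose the genes, so nothing is read from them. The median of all tested genes was 0.12 at 2 DAFB and -0.01 at 5 DAFB, so the genes lay below the bulk by 0.12 more at the first stage than the values show. All 4 were above 1 FPKM in all 12 libraries and passed the filter on low values without help from a single group.

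As a ratio, the cultivar gap of each gene was wider at 5 than at 2 DAFB. In FPKM only the gap of PCP024822 was wider. The means of PCP002967, for example, were 884 and 254 at 2 DAFB and 28.5 and 4.56 at 5 DAFB. The later difference minus the earlier was -1.73 for PCP024822, -0.66 for PCP020355, -1.02 for PCP023499 and -0.75 for PCP002967 on the log2(FPKM + 1) scale. Leaving out replicate 2 of ‘CF1’ gave -0.38 for PCP020355 and -0.28 for PCP002967, and leaving out replicate 3 gave -1.15 for PCP002967. These differences rest on the libraries that chose the genes and carry no test. No gene of the table passed the test of such a difference at an adjusted P (Benjamini-Hochberg over 25707 genes, limma) under 0.05 with a 2-fold or larger change (1 on the log2 scale), and 4061 had an unadjusted P under 0.05. That count of 0 turned on single ‘CF1’ libraries: it was 1809 without replicate 2 and 160 without replicate 3.

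**Figure D2:**
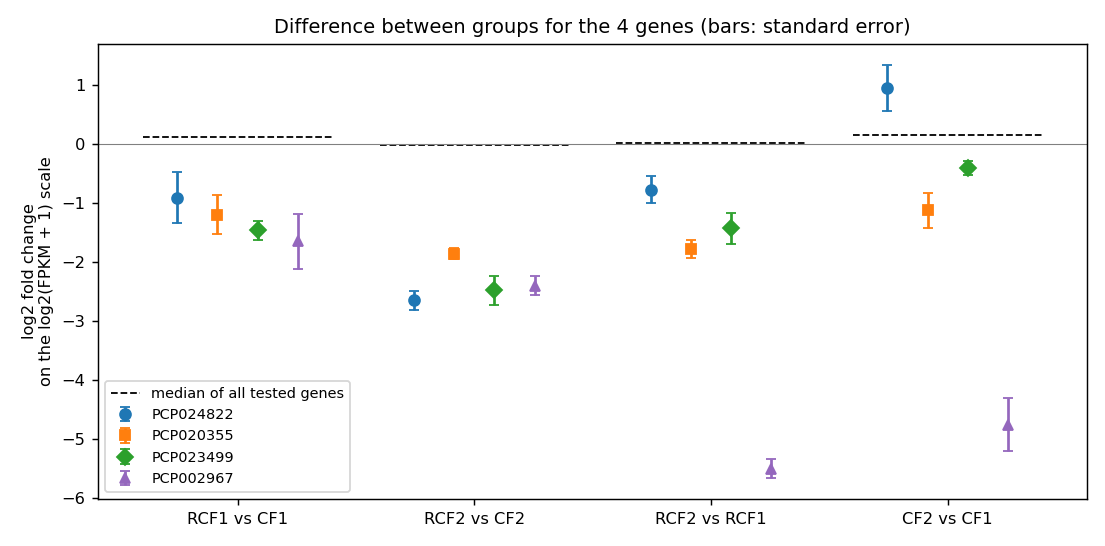
Difference in log2(FPKM + 1) (y) of the 4 genes in the 4 pairwise comparisons (x), with bars of 1 standard error and a dashed line at the median of all tested genes. Both cultivar comparisons are negative for all 4 genes, and in ‘CF2’ vs. ‘CF1’ PCP024822 is above 0 while the other 3 are below it.

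The stage contrast was the least tied to the choice. In this balanced design, the mean change from 2 to 5 DAFB over both cultivars cancels the cultivar difference. That mean change is independent of the choice only where all groups have a like spread. Libraries of ‘CF1’ were spread more widely than the others, so the P-values of the 4 genes carry that limit. The haemoglobin gene PCP002967 fell by 5.14 ± 0.25 on the log2(FPKM + 1) scale (limma, adjusted P 1.25e-06), lower in all 6 libraries at 5 DAFB than in any of the 6 at 2 DAFB. PCP020355 fell by 1.45 ± 0.18 (adjusted P 0.000142). The nitrite reductase gene PCP023499 had a change of -0.92 ± 0.17 with an adjusted P of 0.00134, but did not reach the required fold and was not called. For PCP024822 the mean change was 0.09 ± 0.25 (adjusted P 0.763, 95% interval -0.46 to 0.65). Thus 2 of 4 genes fell, where 8.04% of all tested genes fell and 5.3% rose.

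Taken within each cultivar, as a description because these comparisons share their libraries with the cultivar contrasts, PCP024822 changed by 0.96 ± 0.39 in ‘CF2’ vs. ‘CF1’ and by -0.77 ± 0.23 in ‘RCF2’ vs. ‘RCF1’. The former was 0.62 without replicate 3 of ‘CF1’. The mean over both cultivars near 0 therefore joins a higher and a lower value. PCP020355 changed by -1.12 ± 0.30 in the parent and -1.78 ± 0.15 in the sport, and PCP023499 by -0.41 ± 0.12 and -1.43 ± 0.27. The haemoglobin gene dropped 31-fold between the means in the parent, or 22.5-fold without replicate 3 of ‘CF1’, and 55.8-fold in the sport. All 3 libraries of the later stage lay below those of the earlier for 3 of 4 genes in each cultivar, where 22.8% of tested genes did so in the parent and 26.6% in the sport.

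The pair of molybdopterin genes shifted in proportion. In ‘CF2’, PCP020355 was 1.49, 1.52 and 1.5 times as abundant as PCP024822, with an SD of 0.0153. It was 3.16, 2.27 and 3 in ‘RCF2’ and 4.37, 5.82 and 6.47 in ‘RCF1’, and it ranged from 2.35 in replicate 2 to 16.2 in replicate 3 of ‘CF1’. The summed FPKM of both was 169.8 to 284.8 in ‘CF1’ against 69.4 to 105.9 in ‘RCF1’, and 121.6 to 146.7 in ‘CF2’ against 26.0 to 33.8 in ‘RCF2’. Set against the nitrite reductase gene, that sum stayed between 1.77 and 3.70 times PCP023499 in all 12 libraries. Sequences of the pair were not used here, so reads that could belong to either copy may have been split between them.

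Within groups, the genes partly moved together from library to library. In ‘RCF1’ replicate 2 was the lowest of 3 for all 4 genes, and in ‘RCF2’ replicate 2 was the highest of 3 for all 4. In ‘CF1’, PCP020355 and PCP002967 were highest in replicate 3, then in replicate 1, then in replicate 2, and PCP024822 had the reverse order. Over the 12 libraries, which share the 4 groups, Pearson's r of log2(FPKM + 1) was 0.92 between PCP020355 and PCP023499, 0.90 between PCP020355 and PCP002967, 0.82 between PCP024822 and PCP023499 and 0.71 between PCP023499 and PCP002967. It was 0.57 between the pair of molybdopterin genes and 0.26 between PCP024822 and the haemoglobin gene. The genes were chosen for the same direction between the cultivars, so high values are partly built in. Ranked by r with PCP002967 among 25706 genes, PCP020355 held place 1336 and PCP023499 place 4749. Ranked by r with PCP023499, PCP020355 held place 11 and PCP024822 place 96.

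Few other genes share these domain names. No other gene has the domain name of the molybdopterin pair or of PCP023499, and 1 other, PCP013336, has that of PCP002967. PCP013336 was at most 0.268 FPKM in any library and was listed at 0 in ‘RCF2’, too low to be tested. None of the 4 genes overlaps another annotated gene: the nearest neighbour of PCP024822 is 15278 bases away and was listed at 0, and that of PCP023499 is 5877 bases away.

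The haemoglobin family as a whole held 5 genes. PCP006132, with a globin domain, ran opposite to PCP002967 between the cultivars: 8.77, 6.25 and 9.72 FPKM in ‘CF1’ against 12.5, 18.2 and 18.6 in ‘RCF1’, and 3.73, 2.87 and 3.29 in ‘CF2’ against 6.93, 5.11 and 5.60 in ‘RCF2’. The sport was above the parent at both stages with no overlap, but the changes of 0.91 ± 0.22 (adjusted P 0.221) and 0.68 ± 0.13 (adjusted P 0.0246) on the log2(FPKM + 1) scale in limma's fits stayed under the required fold. With stage it fell like PCP002967, though far less, by 1.21 ± 0.13 (adjusted P 6.36e-05). PCP020620, also a globin-domain gene, fell by 1.91 ± 0.21 (adjusted P 6.5e-05) from 1.51 to 5.05 FPKM at 2 DAFB to at most 0.148 at 5 DAFB. It passed the filter on low values only through the 2 DAFB libraries, so the filter favoured a fall. The fifth gene, PCP040615, was listed at 0 throughout.

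The make-up of the haemoglobin transcripts differed between the groups. PCP002967 gave 98.1 to 98.9% of the summed FPKM of the 5 genes in ‘CF1’, 89.6 to 94.6% in ‘RCF1’ and 88.3 to 89.8% in ‘CF2’. In ‘RCF2’ it gave 34.5, 49.3 and 46.8%, where PCP006132 was the more abundant in replicates 1 and 3 and level with it in replicate 2, at 5.11 against 5.1 FPKM. The other 2 enzymes of the nitrite and sulphite reductase list, the ferredoxin-type sulphite reductases PCP024610 and PCP033831 of sulphur assimilation, showed no such shift. PCP024610 was at 19.5 to 27.6 FPKM and PCP033831 at 15.0 to 21.5 over all libraries, and their ‘RCF2’ vs. ‘CF2’ changes were 0.03 (95% interval -0.31 to 0.36) and -0.06 (-0.31 to 0.20).

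**Figure D3:**
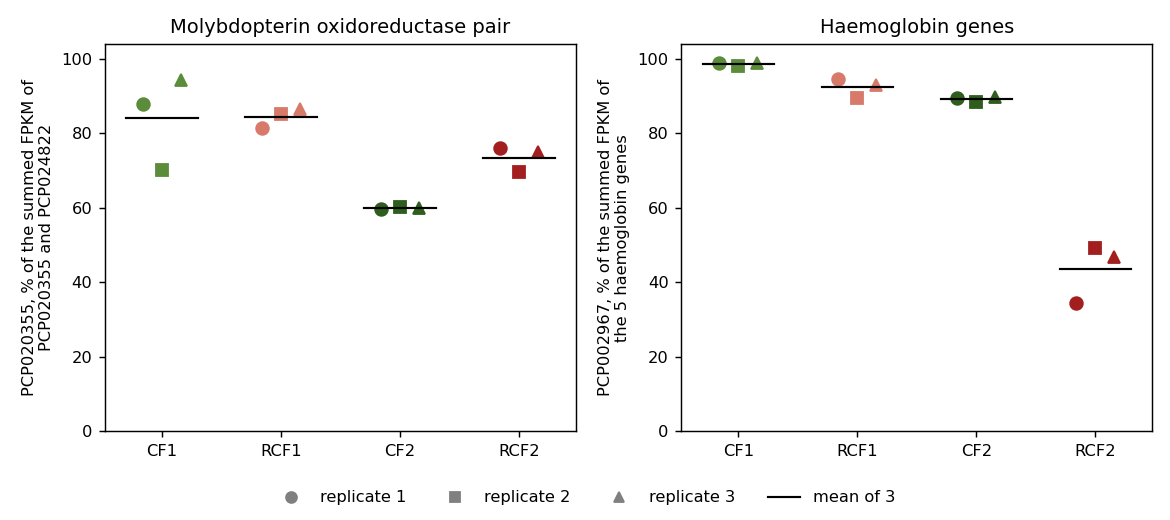
Left, PCP020355 as a percentage of the summed FPKM of the molybdopterin pair, and right, PCP002967 as a percentage of the summed FPKM of the 5 haemoglobin genes (y), in each library by group (x), with the mean of 3 as a line. The pair stands near 60% in all ‘CF2’ libraries, and the haemoglobin share drops under 50% in ‘RCF2’ alone.

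Genes around the nitrate pathway were drawn from the domain names into 12 lists of 160 genes besides the 4, of which 94 passed the filter. As in the methods of the study, a call in the pairwise comparisons needed a change of 2-fold or more either way and P below 0.05 before adjustment. In ‘RCF1’ vs. ‘CF1’, 2 of the 94 were higher and 3 lower (all tested genes: 1.02% and 1.87%), none with an adjusted P under 0.05, and leaving out 1 library at a time gave 1 to 11 calls. In ‘RCF2’ vs. ‘CF2’, 2 were higher and 2 lower (0.902% and 0.358%). The median change of the 94 at 5 DAFB was -0.02, beside -0.01 for all genes.

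At 5 DAFB the called genes on the lower side were PCP042320 and PCP012336. PCP042320 has a tetrapyrrole methylase domain, which occurs in the enzyme that commits tetrapyrroles to sirohaem, the prosthetic group of nitrite and sulphite reductase, and in some other methylases. At 2 DAFB its level was 41.1, 33.9 and 40.0 FPKM in the parent and 23.0, 16.6 and 20.1 in the sport, and at 5 DAFB 26.1, 26.6 and 28.4 against 8.28, 10.7 and 9.82. The sport lay below the parent with no overlap at either stage, with a change of -1.41 ± 0.10 at 5 DAFB (limma, adjusted P 0.00104) and of -0.92 ± 0.16 (adjusted P 0.145) at 2 DAFB, the latter not called. The other 2 tested genes of the sirohaem list were not called between the cultivars.

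PCP012336 encodes a glucose-6-phosphate dehydrogenase, the enzyme that supplies NADPH from sugar phosphate, in plastids also for nitrite reduction. Its level was 18.6, 24.2 and 19.7 FPKM in ‘CF2’ and 7.74, 12.8 and 8.02 in ‘RCF2’, a change of -1.08 ± 0.19 (limma, adjusted P 0.0192), and the call was lost without replicate 2 of ‘CF2’ or replicate 1 or 3 of ‘RCF2’. At 2 DAFB the cultivars overlapped, with a change of -0.15 ± 0.25. Over the 9 tested genes with a glucose-6-phosphate dehydrogenase domain, NAD-binding in PCP012336 and C-terminal in the rest, 7 had a change below 0 at 5 DAFB, from -1.08 to 0.12, and 1 was called. PCP025622 and PCP030311 stayed just under the required fold, with -0.91 ± 0.13 (adjusted P 0.0131) and -0.93 ± 0.14 (adjusted P 0.0133).

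On the higher side at 5 DAFB, PCP009962, a molybdenum cofactor biosynthesis gene, was at 10.1, 12.3 and 17.6 FPKM in ‘CF2’ and 28.1, 29.9 and 28.3 in ‘RCF2’. This change of 1.09 ± 0.17 (limma, adjusted P 0.0148) ran against that of the molybdopterin pair, and the call was lost without replicate 1 of ‘CF2’ or in 1 fit of all 12 libraries. The remaining call was PCP004528, an alpha-class carbonic anhydrase, with 1.02 ± 0.32 (adjusted P 0.101), a call lost with array weights and without replicate 1 of ‘CF2’ or replicate 2 of ‘RCF2’. None of the 11 other tested molybdopterin enzymes, 10 nitrate and peptide transporters, 5 ammonium transporters, 8 ammonium assimilation genes, 4 RWP-RK factors or 15 14-3-3 proteins was called at 5 DAFB. RWP-RK factors include the nitrate-responsive NIN-like proteins, and 14-3-3 proteins inactivate phosphorylated nitrate reductase. The most abundant glutamine synthetase, PCP009935, which joins ammonium to glutamate, was at 293.1 to 314.4 FPKM in ‘CF2’ and 269.9 to 295.6 in ‘RCF2’, with a change of -0.11 (95% interval -0.26 to 0.05).

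**Figure D4:**
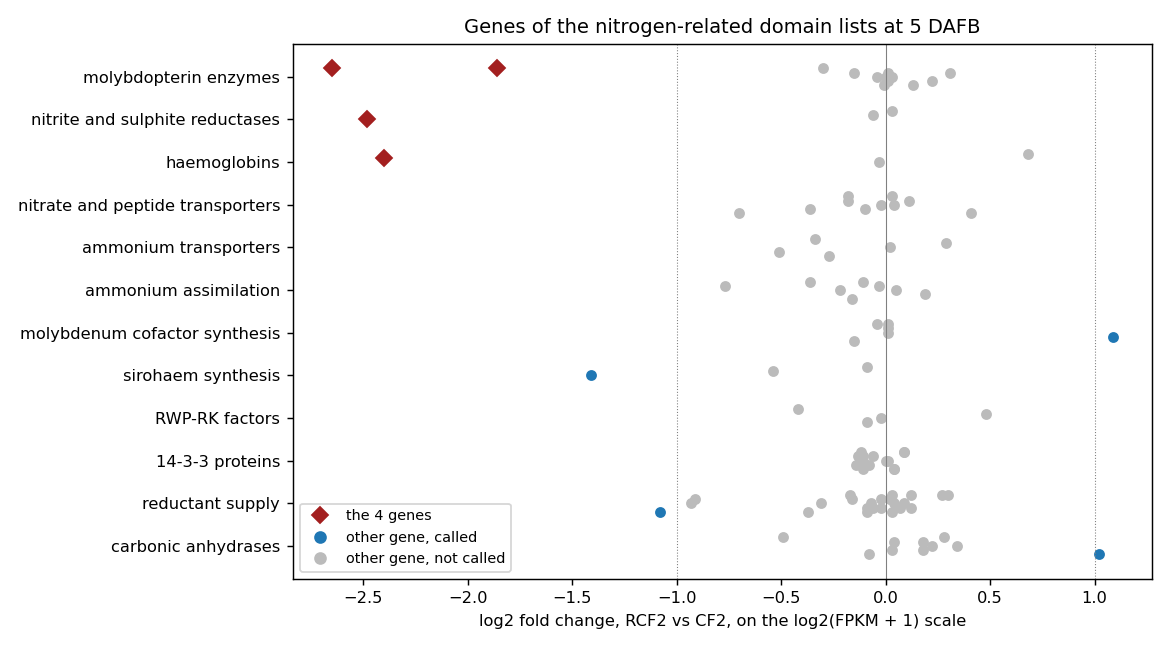
Difference in log2(FPKM + 1) between ‘RCF2’ and ‘CF2’ (x) of every tested gene of the 12 lists (y), with the 4 chosen genes as diamonds, called others in blue and the rest in grey, and dotted lines at the required fold. The 4 genes lie between -2.65 and -1.86, while the lowest other gene is at -1.41.

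Stage calls in the lists were near the share of all genes. From 2 to 5 DAFB, over both cultivars, 4 of the 94 rose and 10 fell (all genes: 5.3% and 8.04%). A glutamine synthetase, PCP026834, fell by 2.61 ± 0.32 (limma, adjusted P 0.00012), from 1.91 to 26.6 FPKM at 2 DAFB to at most 0.763 at 5 DAFB. This gene too passed the filter only through the 2 DAFB libraries. The ammonium transporter PCP024297 fell by 1.80 ± 0.13 (adjusted P 7.27e-06), the peptide and nitrate transporter family gene PCP014562 by 1.27 ± 0.11 (adjusted P 1.74e-05) and the carbonic anhydrase PCP004653 by 2.61 ± 0.21 (adjusted P 1.3e-05). Among those that rose, PCP041321, of the same transporter family, changed by 1.81 ± 0.28 (adjusted P 0.000554) and PCP034192, another of the 3 tetrapyrrole methylase genes, by 1.32 ± 0.22 (adjusted P 0.000747), opposite in sign to PCP020355 and PCP002967. In the single cultivars, 2 rose and 9 fell in ‘RCF2’ vs. ‘RCF1’ (all genes: 3.54% and 6.71%) and 7 rose and 14 fell in ‘CF2’ vs. ‘CF1’ (7.23% and 9.91%).

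One gene outside the lists was named after its values were seen. PCP003500, a major facilitator gene, is placed in nitrogen metabolism by the accompanying pathway annotation, which does not pair it with an entry, so that it carries nitrate is an inference from its family. It was at 126.4, 28.9 and 226.8 FPKM in ‘CF1’ and 31.3, 13.7 and 32.8 in ‘RCF1’. Its level was near 2 in both cultivars at 5 DAFB, between 1.70 and 2.52. Its change with stage was -3.97 ± 0.42 (limma, adjusted P 5.53e-05). At 5 DAFB the cultivars overlapped, with a change of -0.02 ± 0.12 (95% interval -0.30 to 0.27). Among the ‘CF1’ libraries it followed the order of PCP002967 and PCP020355.

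Profiles most like those of the 4 genes were ranked by Pearson's r of log2(FPKM + 1) over the 12 libraries, as a description with no test. For PCP023499 the closest were PCP013028, an NAD(P)-binding domain gene (r = 0.983), and PCP042320, the tetrapyrrole methylase (r = 0.981), which was also among the 5 closest to PCP020355 (r = 0.960). PCP013028 had mean levels of 54.8 and 41.3 FPKM in parent and sport at 2 DAFB and 51.0 and 27.2 at 5 DAFB. PCP020355 was followed most closely by PCP044584, with the DNA-binding domain of the ERF type that the file names integrase-type (r = 0.979), the subtilisin-type peptidase PCP007238 (r = 0.970) and the Myb-domain gene PCP015082 (r = 0.969). The Tubby-domain gene PCP017191 stood among the 5 closest of both PCP020355 (r = 0.966) and PCP023499 (r = 0.944), as did PCP015082, with r = 0.935 for the latter.

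For PCP024822 the 5 closest genes were PCP024971, of unknown function (r = 0.933), PCP025622, the glucose-6-phosphate dehydrogenase named above (r = 0.931), PCP006258, a reverse transcriptase gene (r = 0.915), and the HPP-domain genes PCP004010 (r = 0.909) and PCP033099 (r = 0.898). How many other genes of the table carry the HPP domain name was not counted. In Arabidopsis, a protein of the HPP family carries nitrite into chloroplasts. PCP004010 was at 25.1, 26.6 and 15.6 FPKM in the parent and 16.7, 14.8 and 14.1 in the sport at 2 DAFB, and at 23.3, 23.2 and 23.2 against 7.89, 8.83 and 8.5 at 5 DAFB. Like PCP024822 it overlapped between the cultivars at 2 DAFB and did not at 5 DAFB. PCP033099 was low, at 1.42 to 1.57 FPKM in ‘CF2’ and 0.182 to 0.309 in ‘RCF2’. It passed the filter on low values only through libraries of the parent.

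The profile closest to that of the haemoglobin gene was that of PCP032928, another gene with the integrase-type domain (r = 0.99). Next came the dehydrin PCP014532 (r = 0.989), the cytochrome P450 PCP021114 (r = 0.988), the lipocalin PCP019300 (r = 0.988) and a gene with no description. Dehydrins are proteins of seeds and of tissues short of water. PCP014532 had means of 514 ± 268 FPKM (SD, n = 3) in the parent and 166 ± 27 in the sport at 2 DAFB, and of 25.3 ± 13.1 and 6.53 ± 0.565 at 5 DAFB, the same order of groups as PCP002967. None of these genes was among the 5 closest to the reductase genes. Such short lists do not set the profiles apart, since r between PCP002967 and PCP020355 was 0.90.

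**Figure D5:**
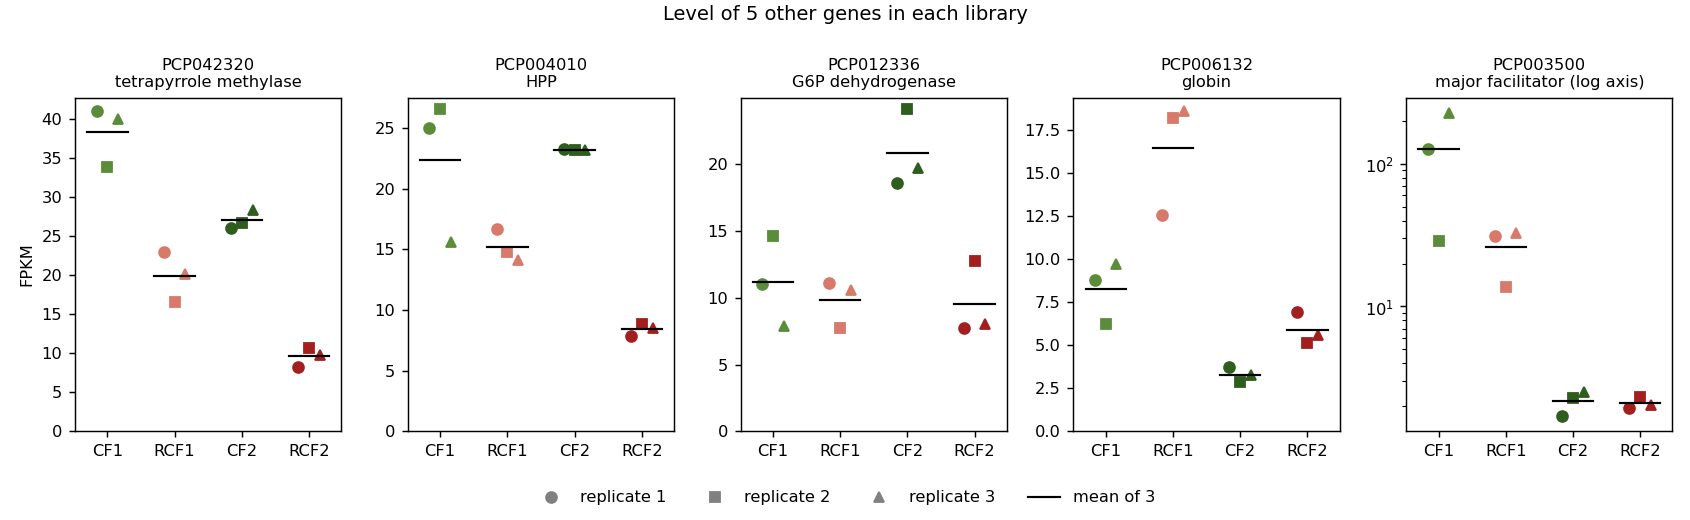
FPKM (y, from 0 except for the log axis of the last panel) in each library by group (x) of PCP042320, PCP004010, PCP012336, PCP006132 and PCP003500, with the mean of 3 as a line. The first 3 have their lowest mean in ‘RCF2’, PCP006132 is higher in ‘RCF’ at both stages, and PCP003500 is near 2 FPKM in both cultivars at 5 DAFB.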

How the data were processed

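Polyadenylated RNA of 12 skin libraries was sequenced by the authors, and 1 table of FPKM values was deposited, with scaffold positions and domain names for 42760 genes. The notes of the submitters list Trimmomatic 0.38, HISAT2 2.1.0, StringTie 1.3.4d and DESeq2, with no roles. The paper names other tools and an apple reference, whereas the identifiers are those of pear scaffolds, and the build is not given in the sources used here. Because FPKM are no counts, no count model was fitted. The supplement of the paper gives the clean reads of each library. The relative depths given here were taken from the steps between low values (below 0.5 FPKM).

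The 4 genes and all lists were chosen with earlier results of these data known. Genes with at least 1 FPKM in at least 3 libraries (25707) were tested on log2(FPKM + 1) with limma 3.58.1 in R 4.3.3 (trended variance, two-sided). Each of the 4 pairwise comparisons used its own 6 libraries and called genes with a change of at least 1 on the log2 scale, either way, and P below 0.05 before adjustment. The stage effect and the difference between cultivar gaps used all 12 libraries, the same fold and P after Benjamini-Hochberg adjustment over all tested genes, and adjusted P are given throughout. Each P-value sets a difference between means against the spread between these libraries, which come from a single sport and a single parent. Named were the 4 genes, others of the same domain name, up to 3 called genes per list and comparison, the most abundant gene of a list and the 5 genes of closest profile for each of the 4. Lists were built from the deposited domain names, and the reductant list also takes in some ribosomal and sulphite reductase genes. The tests were checked on simulated data in which each gene had the same spread in all groups. That check does not cover the wider spread of ‘CF1’. Alternatives were another pseudocount (0.1), other filters (10 FPKM, none), rescaling to TPM, quantile normalization, array weights, 1 fit of all libraries, a replicate block, omission of each library and, chosen after seeing the data, subtraction of the median of tested genes from each library. The RefSeq gene table at hand holds none of the identifiers, so no sequence is shown. Python 3.11.15 with pandas 2.3.3 was used for the values.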

Additional observations from a re-analysis of the deposited data

How the results depend on the processing

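The 4 genes' differences in the pairwise comparisons and in the cultivar gap kept their direction in all 320 recomputed values. All moved by less than the spread between replicates, a limit that was easily met. Other filters, 1 fit of all libraries and the replicate block cannot change these values, and omitting 1 of 3 libraries can hardly move a mean beyond that spread. The count is therefore no measure of robustness. Single ‘CF1’ libraries changed some values by over 1.5 times: without replicate 2, the 2 DAFB difference of PCP024822 was -0.47 in place of -0.91. For the stage effect the criterion was another: 75 of 80 values kept both their direction and their status as called or not called. The change of PCP024822 crossed 0 when single libraries were left out (-0.07 to 0.31), below 0 without replicate 3 of ‘CF1’ or replicate 2 of ‘RCF1’ or ‘RCF2’. That of PCP023499 ranged from -1.07 to -0.79 and reached the required fold without replicate 2 of ‘RCF1’ or of ‘RCF2’. Counts over all genes were less stable, and the cause was not tested. The 742 calls of ‘RCF1’ vs. ‘CF1’ became 1231 with a pseudocount of 0.1, 346 with at least 10 FPKM, 1168 in 1 fit of all libraries, 1422 with array weights and 6 at an adjusted P, and from 448 (without replicate 2 of ‘RCF1’) to 2359 (without replicate 2 of ‘CF1’) with 1 library left out. The 324 of ‘RCF2’ vs. ‘CF2’ became 684 with a pseudocount of 0.1. At least 10 FPKM, which leaves fewer genes to test, gave 1556 for 2636 in ‘RCF2’ vs. ‘RCF1’, 2407 for 4406 in ‘CF2’ vs. ‘CF1’ and 2085 for 3428 in the stage effect. The 0 calls on the cultivar gap became 2 with at least 10 FPKM, 44 after quantile normalization and 1502 with array weights, and 0 to 1809 with 1 library left out. The replicate numbers did not pair the samples (correlation of same-numbered deviations -0.18 to 0.33), and a replicate block gave 971, 325, 2640, 4460, 3411 and 0 calls in the same order of comparisons, with the same stage calls for the 4 genes. With 3 libraries a group, low genes such as PCP013336 could not be compared at this depth.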
